A study of Homo sapiens with 9 samples.

Results

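The ERBB receptors and their ligands were described in HCT8 cells and in lines made resistant to chemotherapy from them. The 10 genes were taken by symbol from the mRNA table of 19976 genes. They are the receptors EGFR, ERBB2, ERBB3 and ERBB4 and the ligands AREG, EREG, HBEGF, TGFA, BTC and EPGN. HCT8 is an established human colorectal adenocarcinoma line. HCT8/5-Fu cells were derived from it by months of rising exposure to 5-fluorouracil (5-Fu), which interferes with the synthesis of thymidylate. HCT8/DDP cells were derived in the same way with cisplatin (DDP), which crosslinks DNA. By the study's methods each resistant line was kept in medium with its drug, and no drug is named for HCT8. Whether the drug was removed before RNA was taken is not stated. A response to drug in the medium thus cannot be told apart from a lasting difference of the line. Total RNA of HCT8/5-Fu, HCT8/DDP and HCT8 cells was sequenced in 3 libraries per line, 9 in all. The study's methods include digestion of linear RNA with RNase R. Whether the mRNA values come from RNA treated in this way is not given in the sources used here. Resistance to each drug is represented by 1 line, so a difference describes that line rather than the drug. The sources do not say whether the libraries of a line came from separate cultures, so the p-values measure only the spread between these libraries.

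ERBB receptors are tyrosine kinases that sit in the plasma membrane and act as dimers. A ligand that binds the outside of EGFR, ERBB3 or ERBB4 opens the receptor for pairing, while ERBB2 has no known ligand and serves as a partner. ERBB3 has little kinase activity of its own and carries docking sites for PI3K. AREG, EREG, HBEGF, TGFA, BTC and EPGN are made as membrane-bound precursors that proteases such as ADAM17 cut free, and all of them bind EGFR. The dimers signal through RAS and ERK, PI3K and STAT proteins, and in the gut epithelium EGFR signalling supports growth and repair. EGFR is a drug target in colorectal cancer, where AREG and EREG levels have been studied as markers of EGFR dependence.

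The libraries held 19753035 to 28535882 reads counted on genes. HCT8/5-Fu replicate 1 and HCT8 replicate 1 were the shallowest of their lines and stood apart from the others. Across genes, Pearson's r of log2 CPM (reads of a gene scaled to a common library size) was 0.978 to 0.98 between HCT8/5-Fu replicate 1 and the rest of its line and 0.988 to 0.99 for HCT8 replicate 1, against 0.997 between the remaining libraries of each line. No libraries of a line agreed within counting error. The colorectal label was checked on 12 epithelial genes, of which 11 exceeded 1 CPM in every library. CEACAM5 was the exception. EPCAM, an epithelial adhesion protein, averaged 374 CPM in HCT8/5-Fu, 349 in HCT8/DDP and 254 in HCT8. CDH1, which encodes E-cadherin, averaged 685 CPM in HCT8/5-Fu, 694 in HCT8/DDP and 635 in HCT8, and CDX2, an intestinal transcription factor, 178 CPM in HCT8/5-Fu, 166 in HCT8/DDP and 165 in HCT8. Among the immune genes, PTPRC and CD3E were at 0 reads in all libraries, CD68 had at most 2 reads in a line, LYZ had 22 reads in HCT8/5-Fu, 35 in HCT8/DDP and 34 in HCT8, and CD14 averaged 1.02 CPM in HCT8/5-Fu, 2.31 in HCT8/DDP and 3.74 in HCT8.

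EPGN, EREG, AREG and BTC lie together on chromosome 4, and their promoters are shown because neighbours in this cluster moved in opposite directions. The mRNA table places AREG (ENSG00000109321) at bases 74445136 to 74455005 of the plus strand and EREG (ENSG00000124882) at 74365145 to 74388749 of the plus strand, 56.4 kb apart. EPGN (ENSG00000182585) lies upstream of EREG at 74308470 to 74316789 of the plus strand. BTC (ENSG00000174808) lies beyond AREG at 74744759 to 74794523 of the minus strand. The table names no genome build, but these gene starts adjoin the start sites of RefSeq on GRCh38.p14. The sequences below are the 250 bases before each start from RefSeq, GRCh38.p14, written 5′ to 3′ on the strand of the gene. They cover chr4:74308220-74308469 (plus) for EPGN, chr4:74364895-74365144 (plus) for EREG, chr4:74444886-74445135 (plus) for AREG and chr4:74794524-74794773 (minus) for BTC. Capitals mark the letters of a TATA box, a CRE or its half-site, an ETS core or a GC box on either strand.
EPGN: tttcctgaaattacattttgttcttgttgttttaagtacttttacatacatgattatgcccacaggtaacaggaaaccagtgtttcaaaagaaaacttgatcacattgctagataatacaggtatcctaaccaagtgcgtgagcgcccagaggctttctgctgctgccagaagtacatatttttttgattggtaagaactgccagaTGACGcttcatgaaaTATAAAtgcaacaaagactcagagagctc
EREG: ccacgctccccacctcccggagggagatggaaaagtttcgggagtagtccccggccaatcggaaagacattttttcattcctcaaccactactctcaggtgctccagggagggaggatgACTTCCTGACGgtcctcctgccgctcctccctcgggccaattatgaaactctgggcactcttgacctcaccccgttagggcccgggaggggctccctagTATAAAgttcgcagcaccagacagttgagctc
AREG: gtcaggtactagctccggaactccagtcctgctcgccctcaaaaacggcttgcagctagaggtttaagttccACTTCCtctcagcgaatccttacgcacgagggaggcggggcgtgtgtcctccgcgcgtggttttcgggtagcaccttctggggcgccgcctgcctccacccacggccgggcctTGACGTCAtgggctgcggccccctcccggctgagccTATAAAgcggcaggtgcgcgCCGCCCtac
BTC: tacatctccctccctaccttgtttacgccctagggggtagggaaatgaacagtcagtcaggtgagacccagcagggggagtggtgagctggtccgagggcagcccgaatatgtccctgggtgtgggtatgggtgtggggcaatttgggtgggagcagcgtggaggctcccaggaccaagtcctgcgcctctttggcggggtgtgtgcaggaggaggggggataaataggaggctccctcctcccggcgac

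The motifs were searched on both strands in the 250 bases before 35116 RefSeq start sites. TATAAA, the TATA box letters, occurred in 10.7% of these windows, and in the plus orientation at base -29 of AREG, -32 of EREG and -29 of EPGN, and also at -146 and -36 of the downstream EGFR window. The full cyclic AMP response element TGACGTCA, present in 1.65% of windows, occurred at base -65 of AREG and in no window of another of the 10 genes. Its half-site TGACG, which the full element contains on both strands, occurred in 21.2% of windows and was at base -125 of EREG, -44 of EPGN and -154 of TGFA. GGAAGT, an ETS core, was in 19.5% of windows. It lay on the opposite strand at base -178 of AREG and at -131 of EREG, where it directly precedes the half-site. The ERBB2 window held 3, at -227 and -12 on the strand of the gene and at -27 on the opposite strand. The GC box GGGCGG was in 42.6% of windows, with 3 copies in a TGFA window, 5 in HBEGF, 2 in an EGFR window and 1 each in AREG and ERBB4. None of these letters was in the BTC window. The AP-1 site TGANTCA (6.57% of windows) was in the ERBB2 window and in the downstream EGFR window. GC content of the windows was 65.2% for AREG, 58.0% for EREG, 38.0% for EPGN and 62.0% for BTC, against a median of 58.0% over all windows. A window was found for 9 of the 10 genes, and for ERBB3 none was used. A match of letters is a description and was not tested as a binding site.

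Resistant cells of both lines carried more mRNA of EGFR and of the ligands TGFA, AREG and HBEGF, and less of the ligand EREG, than HCT8 cells. In bulk RNA of this kind, fewer cells of a type and less RNA per cell cannot be told apart. ERBB3 passed the test for a rise in HCT8/DDP cells and not in HCT8/5-Fu cells, and its difference between the resistant lines did not pass. ERBB2 and BTC passed the test in neither line, and ERBB4 and EPGN were close to absent. A gene was called changed at an adjusted p under 0.05 by edgeR's quasi-likelihood test, adjusted over all genes tested. Of the 10 genes, 8 passed the filter on low counts and were tested. In HCT8/5-Fu against HCT8, 5 of these 8 were called, 4 higher and 1 lower, where 38.7% of all 13228 genes tested were called (20.4% higher, 18.3% lower). In HCT8/DDP against HCT8, 6 of 8 were called, 5 higher and 1 lower, where 52.5% of 13373 genes were called (27.0% higher, 25.5% lower). The median log2 fold change of the 8 genes was 0.94 in HCT8/5-Fu and 1.14 in HCT8/DDP, and over all genes it was close to 0 (-0.0042 in HCT8/5-Fu and -0.014 in HCT8/DDP). The median size of the change, without its sign, was 1.23 in HCT8/5-Fu and 1.59 in HCT8/DDP for the 8 genes, where it was 0.40 in HCT8/5-Fu and 0.38 in HCT8/DDP over all genes. The comparisons share the HCT8 libraries, so their likeness is no independent evidence.

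**Figure D1:**
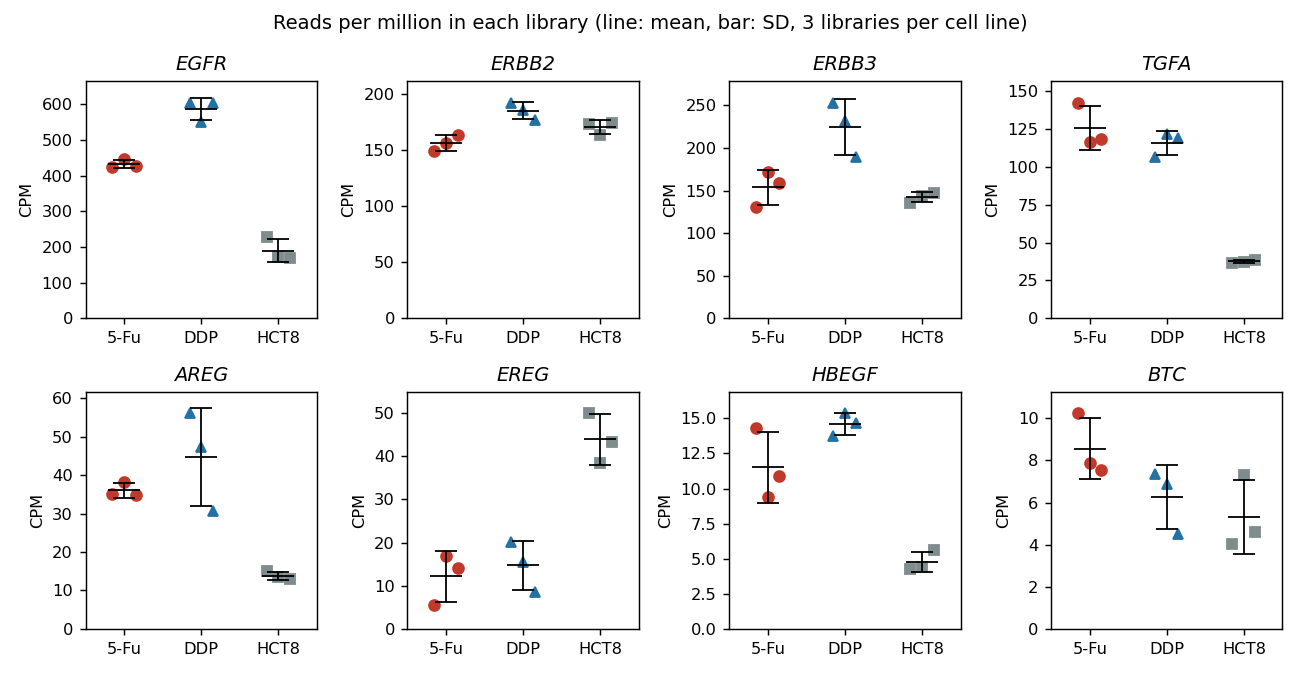
CPM (vertical axis from 0) of the 8 tested genes in each of 3 libraries of HCT8/5-Fu (circles), HCT8/DDP (triangles) and HCT8 (squares), with the mean as a line and the SD as a bar. EGFR, TGFA, AREG and HBEGF lie above HCT8 in all libraries of both resistant lines, and EREG, at 38.4 to 50.0 CPM in HCT8, lies below it in all of them.

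EGFR (ENSG00000146648, chromosome 7, bases 55019017 to 55211628, plus strand), the receptor that all 6 ligands bind, was the receptor with the highest FPKM in both resistant lines. It was read at 425, 446 and 428 CPM in the HCT8/5-Fu libraries, at 605, 550 and 604 CPM in the HCT8/DDP libraries and at 226, 173 and 169.5 CPM in the HCT8 libraries. Every library of a resistant line exceeded every HCT8 library, and the HCT8/DDP libraries lay above those of HCT8/5-Fu. HCT8 replicate 1 was the highest of its line. The log2 fold change was 1.19 ± 0.147 (SE) in HCT8/5-Fu against HCT8 (edgeR adjusted p = 3.74e-04) and 1.63 ± 0.123 in HCT8/DDP against HCT8 (edgeR adjusted p = 2.82e-07). These are 2.28-fold and 3.09-fold.

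ERBB3 (ENSG00000065361, chromosome 12, bases 56076799 to 56103505, plus strand), the docking receptor for PI3K, was higher in HCT8/DDP cells. Its levels were 253, 231 and 189 CPM in HCT8/DDP, against 136, 143 and 148 CPM in HCT8. The groups did not overlap, and HCT8/DDP replicate 3 was nearest to HCT8. The log2 fold change was 0.66 ± 0.111 (SE, edgeR adjusted p = 3.07e-04). HCT8/5-Fu libraries had 131, 172 and 159 CPM and overlapped HCT8, with a log2 fold change of 0.11 (95% interval -0.18 to 0.40, edgeR adjusted p = 0.527). Without replicate 1 of both lines, a setting chosen after the data were seen, ERBB3 was called in HCT8/5-Fu as well. Its log2 fold change was then 0.19 (edgeR adjusted p = 0.00217), in a fit that called 9777 of 13379 genes.

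ERBB2 (ENSG00000141736, chromosome 17, bases 39687914 to 39730426, plus strand), the partner without a ligand, was not called in any comparison. HCT8/5-Fu libraries had 149, 156 and 163 CPM, HCT8/DDP libraries 193, 186 and 177 CPM, and HCT8 libraries 173, 163 and 175 CPM. HCT8/5-Fu overlapped HCT8, and HCT8/DDP lay just above it. The log2 fold change was -0.12 (95% interval -0.37 to 0.12, edgeR adjusted p = 0.384) in HCT8/5-Fu against HCT8. In HCT8/DDP against HCT8 it was 0.12 (95% interval -0.068 to 0.31, edgeR adjusted p = 0.265). ERBB4 (ENSG00000178568, chromosome 2, bases 211375717 to 212538841, minus strand), a receptor for neuregulins, had 0, 10 and 0 reads in HCT8/5-Fu, 0, 0 and 1 in HCT8/DDP and 0 in all HCT8 libraries. A count of 0 over the HCT8 libraries allows up to 3 reads, or 0.0430 CPM, by counting error alone. ERBB4 mRNA was thus hardly detectable at this depth in any line.

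TGFA (ENSG00000163235, chromosome 2, bases 70447284 to 70554193, minus strand), transforming growth factor alpha, a ligand of EGFR, was higher in both resistant lines. It was read at 143, 117 and 119 CPM in HCT8/5-Fu, 107, 122 and 119 CPM in HCT8/DDP and 36.7, 37.4 and 38.6 CPM in HCT8. Both resistant lines lay far above HCT8 and overlapped each other. By edgeR the log2 fold change was 1.74 ± 0.120 (SE) in HCT8/5-Fu (edgeR adjusted p = 1.58e-05) and 1.62 ± 0.0921 in HCT8/DDP (edgeR adjusted p = 2.00e-08), or 3.35-fold and 3.08-fold.

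AREG, amphiregulin, a ligand with low affinity for EGFR, was also higher in both lines. The levels were 35.0, 38.3 and 34.9 CPM in HCT8/5-Fu, 56.1, 47.3 and 30.8 CPM in HCT8/DDP and 14.97, 13.5 and 13.0 CPM in HCT8. No resistant library overlapped HCT8, and the HCT8/DDP libraries spread on either side of HCT8/5-Fu. AREG had a log2 fold change of 1.39 ± 0.130 (SE) in HCT8/5-Fu (edgeR adjusted p = 9.00e-05) and 1.70 ± 0.184 in HCT8/DDP (edgeR adjusted p = 7.45e-06).

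EREG, epiregulin, which binds EGFR and ERBB4, was the only one of the 8 tested genes called lower, and it was called in both lines. Its levels were 5.55, 16.9 and 14.2 CPM in HCT8/5-Fu, 20.04, 15.5 and 8.62 CPM in HCT8/DDP and 50.0, 38.4 and 43.3 CPM in HCT8. Each HCT8 library exceeded every resistant library, and the lowest value was in HCT8/5-Fu replicate 1, a library that stood apart. The log2 fold change was -1.84 ± 0.339 (SE) in HCT8/5-Fu (edgeR adjusted p = 0.00301) and -1.58 ± 0.226 in HCT8/DDP (edgeR adjusted p = 8.33e-05), or 3.58-fold and 2.98-fold lower. Without HCT8/5-Fu replicate 1 the first value was -1.50 (edgeR adjusted p = 7.06e-05).

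HBEGF (ENSG00000113070, chromosome 5, bases 140332843 to 140346603, minus strand), a heparin-binding ligand of EGFR and ERBB4, was higher in both lines at a low level. The libraries had 14.3, 9.38 and 10.9 CPM in HCT8/5-Fu, 13.8, 15.4 and 14.7 CPM in HCT8/DDP and 4.25, 4.44 and 5.59 CPM in HCT8. Neither resistant line overlapped HCT8. HBEGF had a log2 fold change of 1.27 ± 0.227 (SE) in HCT8/5-Fu (edgeR adjusted p = 0.00262) and 1.61 ± 0.170 in HCT8/DDP (edgeR adjusted p = 5.65e-06).

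BTC, betacellulin, another ligand of EGFR and ERBB4, had 10.2, 7.88 and 7.57 CPM in HCT8/5-Fu, 7.37, 6.89 and 4.51 CPM in HCT8/DDP and 4.02, 7.29 and 4.60 CPM in HCT8. The HCT8/5-Fu libraries lay above those of HCT8, the highest of which was replicate 2, and HCT8/DDP overlapped HCT8. The log2 fold change of 0.69 in HCT8/5-Fu (95% interval 0.078 to 1.29) missed the threshold after adjustment (edgeR adjusted p = 0.0718), and it passed without HCT8 replicate 2 (0.98, edgeR adjusted p = 0.0309). In HCT8/DDP the value was 0.24 (95% interval -0.34 to 0.81, edgeR adjusted p = 0.479). EPGN, epigen, a low-affinity ligand of EGFR, had 14, 1 and 5 reads in HCT8/5-Fu, 1, 10 and 2 in HCT8/DDP and 3, 0 and 1 in HCT8, and did not pass the filter on low counts. Counted over the 8 tested genes, 5 lay above HCT8 in every HCT8/5-Fu library and 1 below, and 6 lay above in every HCT8/DDP library and 1 below. Among all genes tested, 26.4% lay above and 25.5% below in HCT8/5-Fu, and 30.5% above and 29.1% below in HCT8/DDP.

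**Figure D2:**
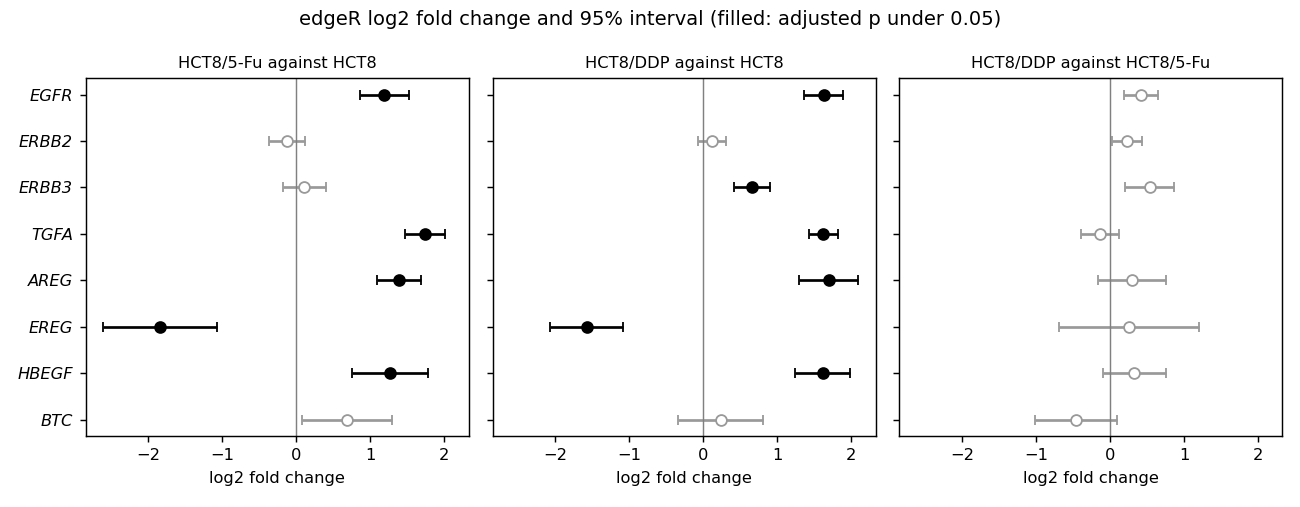
edgeR log2 fold change (points) with its 95% interval (bars) for the 8 tested genes in HCT8/5-Fu against HCT8, HCT8/DDP against HCT8 and HCT8/DDP against HCT8/5-Fu, with filled points where the adjusted p was under 0.05. EGFR, TGFA, AREG and HBEGF are filled on the right of 0 and EREG on the left in both comparisons with HCT8, and no point is filled between the resistant lines.

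HCT8/DDP cells were compared with HCT8/5-Fu cells to ask whether the resistant lines differed in these genes. None of the 8 genes was called by edgeR, where 2.27% of 13012 genes were called (1.51% higher, 0.753% lower). An unadjusted p under 0.05 was found for 2706 of the 13012 and for 3 of the 8. These were the receptors EGFR (log2 fold change 0.42, 95% interval 0.19 to 0.65, edgeR adjusted p = 0.0669), ERBB3 (0.53, 0.21 to 0.86, edgeR adjusted p = 0.0886) and ERBB2 (0.23, 0.026 to 0.44, edgeR adjusted p = 0.193). All 3 were higher in every HCT8/DDP library than in any HCT8/5-Fu library, as were 16.1% of all genes tested. Among the ligands the log2 difference was 0.30 for AREG (95% interval -0.16 to 0.75), 0.26 for EREG (-0.69 to 1.21), 0.33 for HBEGF (-0.093 to 0.75), -0.14 for TGFA (-0.40 to 0.13) and -0.46 for BTC (-1.02 to 0.089). Differences as large as those of EGFR and ERBB3 lie within the intervals of AREG, EREG and HBEGF. The call depended on the test and on HCT8/5-Fu replicate 1. DESeq2 called EGFR (adjusted p = 9.17e-04) and ERBB3 (adjusted p = 0.0209), and edgeR without HCT8/5-Fu replicate 1 called EGFR (0.41, adjusted p = 0.00179), ERBB3 (0.43, adjusted p = 0.00966) and HBEGF (0.51, adjusted p = 0.0172). Of all genes, DESeq2 called 1177 of 13699, and edgeR without that library called 3929 of 13162.

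Levels of different genes were compared in the FPKM that the authors deposited. These divide reads by depth and by a length given for each gene. This length was 12525 bases for EGFR, 10321 for ERBB2 and 9039 for ERBB3. How it was set is not given in the sources used here. The order of genes and the shares of receptors and ligands depend on it. In HCT8/5-Fu cells the order was EGFR (33.9 FPKM), TGFA (25.3), AREG (21.5), ERBB3 (16.6), ERBB2 (14.8), HBEGF (3.82), BTC (3.19) and EREG (2.05). Across libraries TGFA overlapped AREG, ERBB3 overlapped ERBB2, and HBEGF, BTC and EREG overlapped in turn. Within each HCT8/5-Fu library, however, TGFA exceeded AREG, HBEGF exceeded BTC and BTC exceeded EREG, while ERBB3 and ERBB2 changed order. Differences between genes were not tested. In HCT8/DDP cells the order was EGFR (45.4 FPKM), AREG (26.5), ERBB3 (24.1), TGFA (22.8), ERBB2 (17.4), HBEGF (4.74), EREG (2.51) and BTC (2.29). AREG, ERBB3 and TGFA overlapped in turn, as did EREG and BTC. In HCT8 cells the 3 expressed receptors came first and overlapped, with ERBB2 at 17.4, ERBB3 at 16.6 and EGFR at 16.0 FPKM. AREG (8.87 FPKM), EREG (8.12) and TGFA (8.05) followed and overlapped, then BTC (2.10) and HBEGF (1.68), which also overlapped. EREG thus stood among the 3 leading ligands in HCT8 cells and last or next to last of the tested ligands in the resistant lines.

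As a share of the summed receptor FPKM, EGFR made up 51.9% ± 1.85 in HCT8/5-Fu, 52.3% ± 3.13 in HCT8/DDP and 31.8% ± 3.86 in HCT8 (SD, n = 3 each). ERBB2 made up 22.7% in HCT8/5-Fu, 20.1% in HCT8/DDP and 34.9% in HCT8, and ERBB3 25.4% in HCT8/5-Fu, 27.7% in HCT8/DDP and 33.3% in HCT8. The receptors together reached 65.3 FPKM in HCT8/5-Fu, 86.9 in HCT8/DDP and 50.0 in HCT8. EGFR thus held a larger share of the receptor mRNA in both resistant lines than in HCT8, with no test made of a share.

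Ligands together reached 56.0 FPKM in HCT8/5-Fu, 58.9 in HCT8/DDP and 28.8 in HCT8. EREG made up 3.81% ± 1.94 of this sum in HCT8/5-Fu, 4.14% ± 1.15 in HCT8/DDP and 28.0% ± 2.88 in HCT8 (SD, n = 3 each). TGFA made up 44.9% in HCT8/5-Fu, 39.5% in HCT8/DDP and 28.0% in HCT8, and AREG 38.7% in HCT8/5-Fu, 44.3% in HCT8/DDP and 30.7% in HCT8. The smaller shares were those of HBEGF (6.74% in HCT8/5-Fu, 8.17% in HCT8/DDP and 5.84% in HCT8) and BTC (5.65% in HCT8/5-Fu, 3.85% in HCT8/DDP and 7.35% in HCT8). EREG, TGFA and AREG had like shares in HCT8, whereas TGFA and AREG made up most of the sum in the resistant lines.

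**Figure D3:**
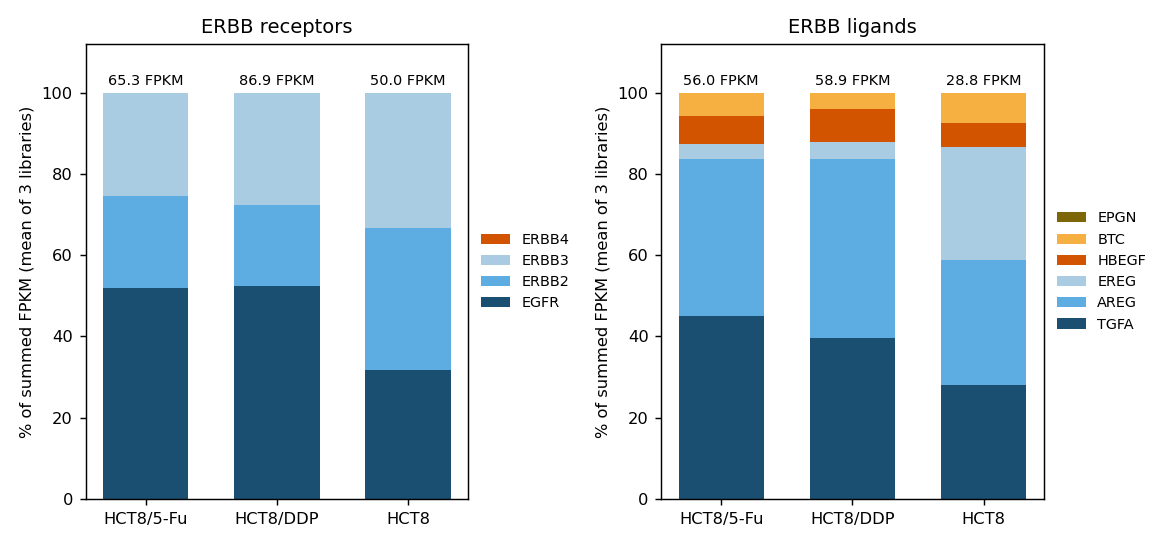
Share of each receptor in the summed FPKM of the receptors (left) and of each ligand in that of the ligands (right) in HCT8/5-Fu, HCT8/DDP and HCT8, as the mean of 3 libraries, with the mean sum above each bar. EGFR fills 51.9% and 52.3% of the receptor bars of the resistant lines and 31.8% of that of HCT8, and EREG 3.81% and 4.14% of their ligand bars and 28.0% of that of HCT8.

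Across the 9 libraries, log2(CPM + 1) of EGFR correlated with that of AREG (Pearson's r = 0.95), HBEGF (0.93) and TGFA (0.92), and that of EREG ran against TGFA (-0.91) and HBEGF (-0.87). These values describe 3 lines of 3 libraries each, so they mostly repeat the differences between lines, and no p is given. ERBB2 had r between -0.49 with BTC and 0.76 with ERBB3. Among 12752 genes tested in all comparisons, those most like EREG, which had the largest change among the 10 genes in HCT8/5-Fu but not in HCT8/DDP, were CCDC28B (r = 0.98), NSUN7 (0.97) and SASS6 (0.97). SASS6, which encodes a centriole assembly protein, had 21.2, 27.8 and 29.9 CPM in HCT8/5-Fu, 31.5, 29.0 and 27.8 CPM in HCT8/DDP and 39.9, 39.6 and 39.2 CPM in HCT8. NSUN7, of an RNA methyltransferase family, had 5.83, 7.92 and 7.68 CPM in HCT8/5-Fu, 9.68, 8.58 and 6.27 CPM in HCT8/DDP and 16.8, 17.4 and 18.7 CPM in HCT8. In each, the lowest HCT8/DDP library was replicate 3 and the lowest HCT8/5-Fu library replicate 1, as for EREG. These genes were picked for their r with EREG over these same libraries, so a like order of libraries is no separate result.

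Within the cluster on chromosome 4, EREG fell while AREG, 80.0 kb from it by their starts, rose in both lines. The other genes within 250 kb of the cluster were listed after the values of EREG and AREG had been seen. CXCL2, a neutrophil chemokine, was lower in both lines, at a mean of 0.654 CPM in HCT8/5-Fu, 1.18 in HCT8/DDP and 5.32 in HCT8. Its log2 fold change was -3.00 ± 0.362 (SE) in HCT8/5-Fu (edgeR adjusted p = 3.30e-04) and -2.16 ± 0.361 in HCT8/DDP (edgeR adjusted p = 2.90e-04). MTHFD2L, a mitochondrial folate enzyme next to EPGN, was higher by 1.31 ± 0.193 in HCT8/5-Fu (edgeR adjusted p = 9.57e-04) and 0.90 ± 0.132 in HCT8/DDP (edgeR adjusted p = 1.08e-04). PARM1, a mucin-like protein beyond BTC, had log2 fold changes of -0.20 (edgeR adjusted p = 0.345) in HCT8/5-Fu and 0.40 (edgeR adjusted p = 0.0126) in HCT8/DDP. Lower and higher genes thus alternated along the tested genes that lie between CXCL2 and AREG.

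**Figure D4:**
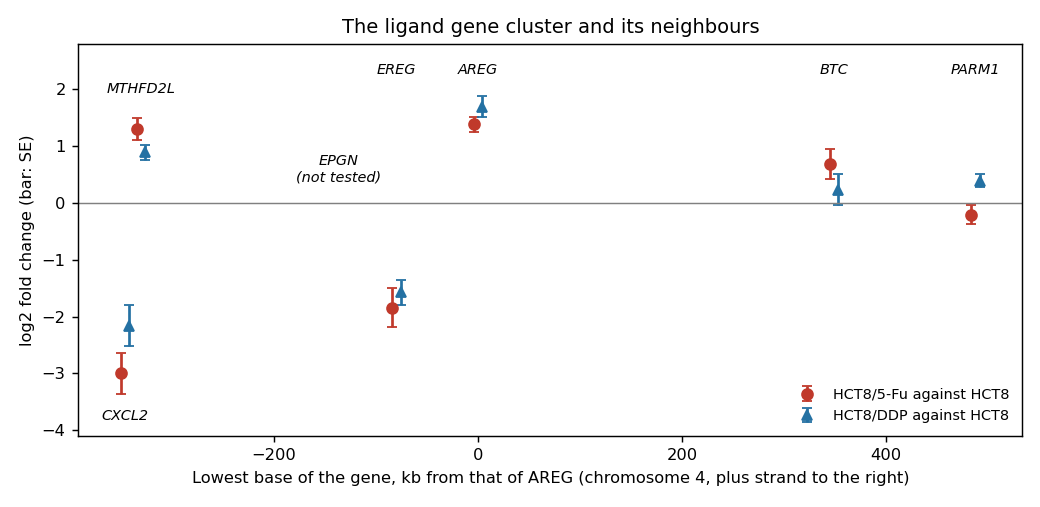
Log2 fold change against HCT8 (vertical axis, bars: SE) of the genes of the ligand cluster and its neighbours, by the distance in kb of their starts from that of AREG. HCT8/5-Fu (circles) and HCT8/DDP (triangles) are drawn a few kb apart for legibility. For CXCL2 and BTC, on the minus strand, the start is the highest base. The axis title names the lowest base, which holds for the plus-strand genes only. EREG, at -1.84 and -1.58, and CXCL2, at -3.00 and -2.16, lie below 0 in HCT8/5-Fu and HCT8/DDP, and AREG, at 1.39 and 1.70, and MTHFD2L lie above it.

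EGF and the neuregulins are the ERBB ligands outside the 10 genes. EGF, the founding ligand of EGFR, was read at 16.9, 20.6 and 18.4 CPM in HCT8/5-Fu, 31.5, 38.2 and 34.5 CPM in HCT8/DDP and 17.0, 19.0 and 20.6 CPM in HCT8. HCT8/DDP lay above both other lines, which overlapped each other. EGF had a log2 fold change of 0.88 ± 0.121 (SE) in HCT8/DDP against HCT8 (edgeR adjusted p = 6.21e-05) and 0.88 ± 0.128 in HCT8/DDP against HCT8/5-Fu (edgeR adjusted p = 0.0271), the second of these a call lost with the replicate block and in 5 of 6 fits that left out 1 library. In HCT8/5-Fu against HCT8 it was -0.02 (edgeR adjusted p = 0.924). NRG2, a ligand of ERBB3 and ERBB4, averaged 1.12 CPM in HCT8/5-Fu, 1.60 in HCT8/DDP and 0.322 in HCT8. It was called in HCT8/DDP (log2 fold change 2.28 ± 0.474, edgeR adjusted p = 0.00147) and in HCT8/5-Fu (1.77 ± 0.553, edgeR adjusted p = 0.0325). The HCT8/5-Fu call was lost without any 1 of HCT8/5-Fu replicates 2 and 3 and of the 3 HCT8 libraries (log2 fold change 1.43 to 2.21). NRG4 averaged 1.17 CPM in HCT8/5-Fu, 1.01 in HCT8/DDP and 0.619 in HCT8 and was not called. NRG1 had 4 reads in all in HCT8/5-Fu, 8 in HCT8/DDP and 0 in HCT8, and NRG3 had none.

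Of the proteases that release the ligands, neither ADAM17 nor ADAM10 was called with TMM factors and all 6 libraries of a comparison. ADAM17, which cuts most of these precursors, averaged 77.4 CPM in HCT8/5-Fu, 81.1 in HCT8/DDP and 92.8 in HCT8, and ADAM10 averaged 249.5 CPM in HCT8/5-Fu, 257 in HCT8/DDP and 283 in HCT8. Of 7 shedding genes, 2 were higher and 1 lower in HCT8/5-Fu, and 4 were higher and 1 lower in HCT8/DDP (3 called without HCT8/DDP replicate 2), where 38.7% of all genes were called in HCT8/5-Fu and 52.5% in HCT8/DDP. With library totals in place of TMM factors the split was 1 higher and 1 lower in HCT8/5-Fu and 2 higher and 3 lower in HCT8/DDP. ADAM17 and ADAM10 were then among the genes called lower in HCT8/DDP. Over all genes library totals gave 2036 higher and 2891 lower of 13228 in HCT8/5-Fu, and 2751 and 4411 of 13373 in HCT8/DDP. Without HCT8 replicate 1, 4 of the 7 shedding genes were higher and 2 lower in HCT8/DDP, beside 4102 and 3922 of 13600 genes. FRMD8, which stabilizes the ADAM17 cofactors known as iRhoms, was higher by 0.98 ± 0.180 on the log2 scale in HCT8/5-Fu and 0.74 ± 0.156 in HCT8/DDP. RHBDF2, which encodes an iRhom, was higher by 0.67 ± 0.125 in HCT8/DDP. In HCT8/5-Fu it was higher by 0.49 ± 0.164 (edgeR adjusted p = 0.044), a call lost without HCT8 replicate 2 or 3 or HCT8/5-Fu replicate 1 or 3. RHBDL2, a rhomboid protease, was lower by 1.59 ± 0.296 in HCT8/5-Fu and 1.35 ± 0.238 in HCT8/DDP, at means of 1.95 CPM in HCT8/5-Fu, 2.29 CPM in HCT8/DDP and 5.85 CPM in HCT8. The list also holds TIMP3, an inhibitor of ADAM17, which was called higher in HCT8/DDP (0.26 ± 0.0955).

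Among 13 negative regulators of the receptors, 3 were higher and 2 lower in HCT8/5-Fu, and 5 were higher and 2 lower in HCT8/DDP, shares near those of all genes (38.7% in HCT8/5-Fu and 52.5% in HCT8/DDP). With library totals 2 were higher and 3 lower in HCT8/5-Fu, and 4 higher and 4 lower in HCT8/DDP. The same setting gave 2036 higher and 2891 lower of 13228 genes in HCT8/5-Fu, and 2751 and 4411 of 13373 in HCT8/DDP. ERRFI1, which encodes MIG6, an inhibitor of the EGFR kinase, was higher by 0.74 ± 0.107 (log2, SE) in HCT8/5-Fu and 0.77 ± 0.127 in HCT8/DDP. PTPN1, a phosphatase that acts on EGFR, was higher by 0.52 ± 0.109 in HCT8/5-Fu and 0.51 ± 0.0937 in HCT8/DDP. PTPRJ, another such phosphatase, was higher by 0.61 ± 0.0864 in HCT8/DDP, and CBLC, a ubiquitin ligase of the CBL family, was lower by 0.66 ± 0.152 in HCT8/5-Fu. The median log2 fold change of the list was 0.21 in HCT8/5-Fu and 0.14 in HCT8/DDP, against -0.0042 and -0.014 over all genes.

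Of 18 adaptors and first effectors, 6 were higher and 2 lower in HCT8/5-Fu, and 8 were higher and 3 lower in HCT8/DDP, beside 38.7% of all genes called in HCT8/5-Fu and 52.5% in HCT8/DDP. With library totals 5 were higher and 3 lower in HCT8/5-Fu, and 6 higher and 3 lower in HCT8/DDP. All genes then split into 2036 higher and 2891 lower of 13228 in HCT8/5-Fu, and 2751 and 4411 of 13373 in HCT8/DDP. The median log2 fold change of the list was 0.22 in HCT8/5-Fu and 0.19 in HCT8/DDP. SHC1, which links the receptors to RAS, had the smallest p of the list in both lines. It averaged 205 ± 8.01 CPM in HCT8/5-Fu, 246 ± 17.6 CPM in HCT8/DDP and 110.2 ± 5.86 CPM in HCT8 (SD, n = 3 each), a log2 fold change of 0.89 in HCT8/5-Fu and 1.16 in HCT8/DDP. STAT3 was higher by 0.47 ± 0.0993 (log2, SE) and STAT5B lower by 0.58 ± 0.111 in HCT8/5-Fu. PIK3CB, a catalytic subunit of PI3K, was higher by 0.70 ± 0.103 in HCT8/DDP and 0.61 ± 0.142 in HCT8/5-Fu (edgeR adjusted p = 0.00936). PIK3R1, its regulatory subunit, was lower by 0.63 ± 0.0984 in HCT8/DDP and 0.53 ± 0.119 in HCT8/5-Fu (edgeR adjusted p = 0.00812).

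Of 11 genes of receptor endocytosis and sorting, 3 were higher and none lower in HCT8/5-Fu, and 5 were higher and 1 lower in HCT8/DDP, where 38.7% of all genes were called in HCT8/5-Fu and 52.5% in HCT8/DDP. Under library totals 2 were higher and 2 lower in HCT8/5-Fu, and 5 higher and 3 lower in HCT8/DDP. Over all genes they were 2036 higher and 2891 lower of 13228 in HCT8/5-Fu, and 2751 and 4411 of 13373 in HCT8/DDP. Medians of the log2 fold change of the list were 0.16 in HCT8/5-Fu and 0.23 in HCT8/DDP. AP2M1, a subunit of the clathrin adaptor AP2, was higher by 0.66 ± 0.140 (log2, SE) in HCT8/5-Fu and 0.63 ± 0.101 in HCT8/DDP. HGS, an ESCRT protein that sorts ubiquitinated EGFR, was higher by 0.56 ± 0.119 in HCT8/5-Fu, and SH3KBP1, a CBL partner, by 0.49 ± 0.0856 in HCT8/DDP. EPN1, an endocytic adaptor, was higher by 0.52 ± 0.100 in HCT8/DDP. In HCT8/5-Fu it was higher by 0.48 ± 0.158 (edgeR adjusted p = 0.0417), a call lost without any 1 of HCT8 replicates 2 and 3 and HCT8/5-Fu replicates 2 and 3. Counts of called genes in the last 3 lists moved with the HCT8/5-Fu and HCT8 libraries used. Without HCT8 replicate 2 or 3, 3 negative regulators and 5 adaptors were called in HCT8/5-Fu. Over all genes these fits called 3287 of 13393 and 3274 of 13410. Without HCT8/5-Fu replicate 1, 8 negative regulators and 5 endocytosis genes were called, beside 7533 of 13418 genes in all. Without HCT8 replicate 1, 6 endocytosis genes were called (3 higher, 3 lower), beside 5103 of 13417 genes in all. Without replicate 1 of both lines 12 negative regulators, 14 adaptors, 9 endocytosis and 6 shedding genes were called. That fit called 9777 of 13379 genes in all, so the list counts moved along with those of all genes.

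Of these pathway lists the largest median change was that of 13 genes known to be induced by ERK signalling. The lists were chosen with earlier results of these data known, so this rank is no separate result. Of the 13 genes, 10 were higher and 1 lower in HCT8/5-Fu, and 12 were higher and none lower in HCT8/DDP. Of all genes, 20.4% were higher in HCT8/5-Fu and 27.0% in HCT8/DDP. Under library totals 10 of the 13 were higher and 1 lower in HCT8/5-Fu, and 11 higher and none lower in HCT8/DDP. That setting gave 2036 higher and 2891 lower of 13228 genes in HCT8/5-Fu, and 2751 and 4411 of 13373 in HCT8/DDP. The median log2 fold change of the list was 1.36 in HCT8/5-Fu and 1.75 in HCT8/DDP. DUSP4, a phosphatase that dampens ERK, averaged 228 ± 14.9 CPM in HCT8/5-Fu, 192 ± 8.21 CPM in HCT8/DDP and 14.2 ± 3.33 CPM in HCT8 (SD, n = 3 each), a log2 fold change of 4.01 in HCT8/5-Fu and 3.76 in HCT8/DDP. DUSP6, a phosphatase specific to ERK, averaged 479 ± 46.6 CPM in HCT8/5-Fu, 656 ± 68.7 CPM in HCT8/DDP and 103 ± 7.49 CPM in HCT8, a log2 fold change of 2.22 in HCT8/5-Fu and 2.68 in HCT8/DDP. CCND1, which encodes cyclin D1, averaged 2245 ± 142 CPM in HCT8/5-Fu and 541 ± 64.1 CPM in HCT8 (2.05 ± 0.165, log2, SE). SPRY4, a feedback inhibitor of receptor signalling, averaged 96.6 ± 9.06 CPM in HCT8/DDP and 25.6 ± 3.95 CPM in HCT8 (1.92 ± 0.122). SPRY4 was also called higher in HCT8/5-Fu (1.33 ± 0.134, edgeR adjusted p = 1.26e-04). EGR1, an immediate early transcription factor, was the exception. It was lower in HCT8/5-Fu (-0.82 ± 0.193, edgeR adjusted p = 0.00974) and had a log2 fold change of 0.52 in HCT8/DDP (edgeR adjusted p = 0.0689).

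Between the resistant lines, 2 of these 13 genes were called, both higher in HCT8/DDP, where 2.27% of 13012 genes were called (1.51% higher). EGR1 averaged 50.6 ± 17.1 CPM in HCT8/DDP and 20.04 ± 2.68 CPM in HCT8/5-Fu (log2 fold change 1.32 ± 0.246 SE, edgeR adjusted p = 0.0396). SPRY4 averaged 96.6 ± 9.06 CPM in HCT8/DDP and 64.5 ± 1.06 CPM in HCT8/5-Fu (0.57 ± 0.0992, edgeR adjusted p = 0.0367). With any 1 library other than HCT8/5-Fu replicate 1 left out, neither of these genes nor EGF was called. Of the 49 genes of the shedding, negative regulator, adaptor and endocytosis lists, edgeR called 0 between the resistant lines. An unadjusted p under 0.05 was found for 5 of the 49 and for 2706 of all 13012 genes tested. DESeq2 called 2 of the 49 and 1177 of 13699 genes in all. Without HCT8/5-Fu replicate 1, edgeR called 13 of the 49 and 3929 of 13162 genes in all.

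**Figure D5:**
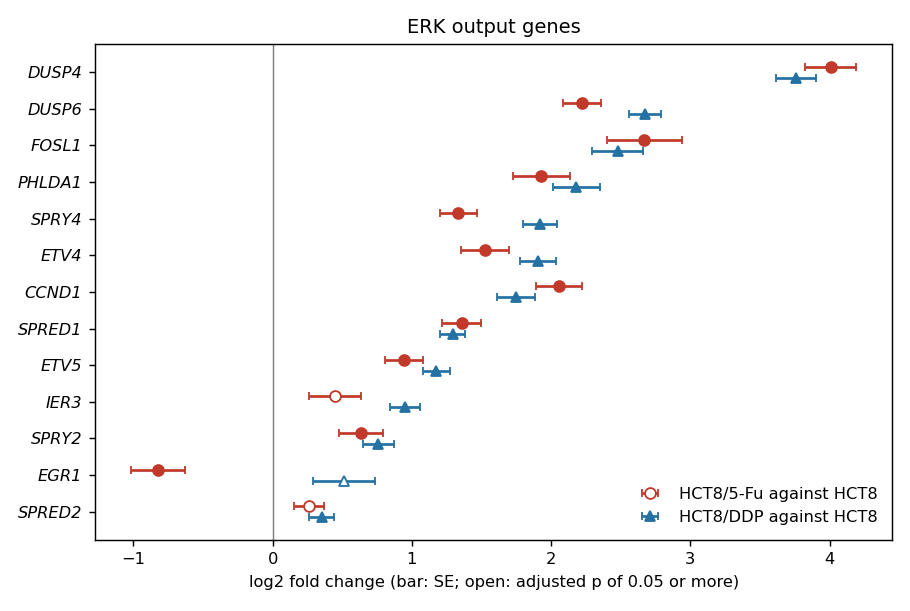
edgeR log2 fold change (horizontal axis, bars: SE) of 13 ERK output genes in HCT8/5-Fu (circles) and HCT8/DDP (triangles) against HCT8, with open symbols where the adjusted p was 0.05 or more. DUSP4, at 4.01 and 3.76, lies furthest to the right, and EGR1 alone lies left of 0, at -0.82 in HCT8/5-Fu.

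Cell state markers moved with the lines as well. The summed level of the 12 epithelial genes was 14400 to 15155 CPM in HCT8/5-Fu, 9873 to 11554 CPM in HCT8/DDP and 5568 to 6220 CPM in HCT8. Most of this sum came from KRT8, a keratin with a mean of 7409 CPM in HCT8/5-Fu, 4670 in HCT8/DDP and 2338 in HCT8, and its partner KRT18, with 4572 CPM in HCT8/5-Fu, 3027 in HCT8/DDP and 1450 in HCT8. In HCT8/5-Fu 7 of the 11 tested were called higher, and in HCT8/DDP 7 of 12, with none lower in either. Over all genes tested, 20.4% were higher in HCT8/5-Fu and 27.0% in HCT8/DDP. CDX2, CDH1, CDH17 and VIL1 were called in neither line. VIL1, which encodes villin, averaged 201 CPM in HCT8/5-Fu, 268 in HCT8/DDP and 266 in HCT8. KRT20, a keratin of differentiated colon cells, averaged 34.1 CPM in HCT8/5-Fu, 20.2 in HCT8/DDP and 2.27 in HCT8. VIM, which encodes vimentin, averaged 24.9 ± 15.8 CPM in HCT8/5-Fu, 66.2 ± 4.95 CPM in HCT8/DDP and 0.905 ± 0.471 CPM in HCT8 (SD, n = 3 each). The HCT8/5-Fu libraries had 6.78, 35.4 and 32.6 CPM of VIM, lowest in replicate 1. ZEB1, a transcription factor of the mesenchymal state, averaged 22.9 CPM in HCT8/5-Fu, 23.4 in HCT8/DDP and 5.68 in HCT8. FN1, CDH2 and SNAI2, of the same list, stayed under 1 CPM in every library. FN1 averaged 0.449 CPM in HCT8/5-Fu, 0.469 in HCT8/DDP and 0.673 in HCT8. It was not called in HCT8/5-Fu (log2 fold change -0.59, edgeR adjusted p = 0.300). VIM and ZEB1 made up most of the summed level of this list. The 7 mesenchymal genes summed to 38.9 to 55.4 CPM in HCT8/5-Fu, 85.3 to 94.0 CPM in HCT8/DDP and 6.62 to 8.80 CPM in HCT8, with 2 of 7 over 1 CPM in each resistant line, at most 2 of 7 in HCT8, and ZEB2 and TWIST1 at 0 throughout. The part of these markers in the ERBB differences was not tested. Summed fibroblast, immune and endothelial genes stayed at or under 14.4 CPM in every library, but single genes of these lists moved with the lines. CD14, a monocyte gene, was lower in HCT8/5-Fu (log2 fold change -1.88, edgeR adjusted p = 0.00638) and in HCT8/DDP (-0.69, edgeR adjusted p = 0.0423). PDGFRB, a fibroblast gene, was higher in HCT8/DDP (0.61, edgeR adjusted p = 0.0371).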

How the data were processed

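Total RNA was depleted of rRNA, and per the labels libraries were made with a kit that digests the second strand. The study's methods describe RNase R digestion for circRNAs, and whether the mRNA values come from RNase R-treated RNA is not given in the sources used here. The submitters' processing notes name HISAT2, DESeq2 and, although the cells are human, the build mm9. The counting tool and its strand setting are not given in the sources used here, so antisense reads may be included. The authors deposited a count of reads for each gene and library, used as deposited. They also deposited FPKM values of the same genes, scaled by depth and by a length given for each gene. The deposited circRNA, miRNA and lncRNA tables and the authors' own comparison columns, which hold fold changes and p-values, were not used.

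Counts were tested in R 4.3.3 with edgeR 4.0.16 (TMM factors, filterByExpr, glmQLFit and glmQLFTest, two-sided), each comparison on its own 6 libraries, with Benjamini-Hochberg adjustment over all genes tested. SE is the log2 fold change divided by the square root of F. CPM used TMM-scaled library sizes, and intervals cover 95%. The limit of a count of 0 covers counting error only. The test was tried on simulated data. DESeq2 1.42.0, library totals, no filter, all 9 libraries in 1 fit, a replicate block and each library left out were tried. Groups are the labelled lines. All 10 genes, EGF and the neuregulins are named, with up to 3 called genes of smallest p per list and comparison with HCT8, fixed markers and the 3 genes most like EREG, whose change in HCT8/5-Fu was the largest of the 10 genes in either comparison with HCT8 at 10 CPM or more (without HCT8/5-Fu replicate 1 it would be that of AREG in HCT8/DDP). ADAM10, ADAM17, TIMP3, HRAS, KRT8, KRT18, CDH17, VIL1, CD14, LYZ, CD68, PDGFRB and CEACAM5 were named after their values were seen. So were EGR1, PTPRC, CD3E, ZEB2, TWIST1, FN1, CDH2, SNAI2 and the neighbours of the ligand cluster. Where a list gene is given for 1 line only, the other line may differ from HCT8 too. The genes and lists were chosen with earlier results of these data known. Promoters are those of RefSeq on GRCh38.p14.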

Additional observations from a re-analysis of the deposited data

Results flagged for a closer look

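The difference between HCT8/DDP and HCT8/5-Fu in the change against HCT8 was tested directly by edgeR and passed an adjusted p of 0.05 for 3 of the genes named. EGF differed by a log2 fold change of 0.88, with every HCT8/DDP library above every HCT8/5-Fu library. EGR1 differed by 1.32 and SPRY4 by 0.57. Each of the 3 values kept its direction under all alternatives, and each call was lost under the replicate block and in 5 of the 6 fits that leave out 1 library. SPRY4 was also lost under library totals (edgeR adjusted p = 0.0502). Samples that stand out within a line were not tested, since each line has 3 libraries.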

How the results depend on the processing

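All 5 genes called in HCT8/5-Fu and all 6 called in HCT8/DDP against HCT8 kept their direction and their call under every alternative. EREG ranged from -2.14 to -1.39 in HCT8/5-Fu and from -1.86 to -1.30 in HCT8/DDP, and EGFR from 1.08 to 1.36 in HCT8/5-Fu and from 1.504 to 1.78 in HCT8/DDP. With library totals in place of TMM factors the median of all genes was -0.11 in HCT8/5-Fu and -0.13 in HCT8/DDP, and of the called genes 41.3% were higher in HCT8/5-Fu (52.6% with TMM factors) and 38.4% in HCT8/DDP (51.5% with TMM factors).

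Genes called in HCT8/5-Fu against HCT8 numbered 3274 to 7533 when 1 library was left out and 9777 without replicate 1 of both lines, against 5118 with all. Between HCT8/DDP and HCT8/5-Fu, where 295 genes and none of the 8 were called by edgeR, DESeq2 called 1177 genes and 2 of the 8, and a fit of all 9 libraries called 635 genes and 1 of the 8 (ERBB3, edgeR adjusted p = 0.0408). Leaving out 1 library gave 0 to 3929 genes and 0 to 3 of the 8, the highest without HCT8/5-Fu replicate 1. Where no gene was called, 1527 to 2551 genes had an unadjusted p under 0.05, and where none of the 8 was called, 2 to 4 of them did. Of the values of single genes outside the 10, 692 of 780 kept their side of the threshold in HCT8/5-Fu and 671 of 715 in HCT8/DDP against HCT8, and no called value reversed.

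The replicate numbers were not taken as pairing the libraries, because the correlations of same-numbered deviations were 0.055 to 0.097 in HCT8/5-Fu with HCT8, -0.13 to 0.031 in HCT8/DDP with HCT8 and -0.26 to 0.092 between the resistant lines. With the replicate block, 0 genes were called in HCT8/DDP against HCT8/5-Fu (2263 at an unadjusted p under 0.05), and the calls of the 8 genes against HCT8 were the same. Outside the 8, the block ended the calls of HRAS and EPN1 in HCT8/5-Fu and of TIMP3 in HCT8/DDP, and no other call against HCT8 among the 73 tested genes of the family and its pathway lists. ERBB4, EPGN, NRG1 and NRG3 did not pass the filter on low counts. With no filter ERBB4 and EPGN were tested and not called, and NRG3 had no reads.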
